A study of Drosophila melanogaster with 24 samples.

Results

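The 38 genes described here encode RNA-binding proteins of Drosophila melanogaster other than Imp and Syp. They were chosen by name and by no rule on measured values, but with earlier results of these data known. All 38 were found among the 15339 genes of the deposited count table. They fall into 5 classes. There are 7 genes for hnRNP proteins, which coat nuclear transcripts, 9 for regulators of splice site choice and 3 for SR proteins, which recruit the splicing machinery. A further 5 encode core parts of the spliceosome, and 14 act on the translation, stability or storage of mature mRNA. Imp and Syp, the RNA-binding proteins that give the study its subject, serve only as a reference. Levels are in CPM, counts scaled to a library total adjusted by TMM. In AL neuroblasts the mean Imp level was 32437 CPM at 24 h and 348 CPM at 84 h, while Syp stood at 1420 and 28847 CPM.

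The study sequenced RNA of neuroblasts, the stem cells of the fly brain, from the antennal lobe (AL) and mushroom body (MB) lineages. Each of 8 groups held 3 libraries: AL larvae aged 24, 36, 50 and 84 h after hatching, MB larvae aged 24, 50 and 84 h after hatching, and MB pupae at 36 h. Larvae hatched within 2 h of each other were raised at 25 °C, and the GFP-labelled cells of about 30 brains were sorted by a robot into pools of 89 to 121 cells. All 8 groups were GFP-labelled cells. The sources used here do not give the driver of GFP, the genotype or how many animals stand behind a library. The RNA was amplified before sequencing, and total gene counts were 6.06 to 9.27 M per library in AL and 3.15 to 5.83 M in MB. Depth and lineage thus went together, and the part of depth in the lineage differences was not tested. A count of 0 allowed a level of up to 0.324 to 0.952 CPM (3 counts of the library total before TMM adjustment), a limit that covers counting error only. The lineage labels were checked on known factors: tll, a mushroom body neuroblast factor, had 255 ± 25.1 CPM (SD, n = 3) in MB and 2.35 ± 0.371 CPM in AL at 24 h, and ems, an antennal lobe lineage factor, had 0.0601 ± 0.104 and 148 ± 19.5 CPM. Not every gene of these lists followed its label. Of 5 mushroom body factors 4 were higher in MB and Dr was lower (log2 difference -4.71), and of 7 antennal lobe factors ems was lower in MB while oc and vnd were higher (4.56 and 3.26). As group means, the pan-glial factor repo lay between 0.0499 and 3.49 CPM, but nrv2 and Eaat1 of the same glia list lay at 182 to 419 and 85.4 to 200 CPM. The haemocyte gene He was at 0 in 5 of the 8 groups, while crq of that list had 17.0 to 85.6 CPM.

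RNA-binding proteins decide what becomes of a transcript after it is made: which exons are joined, how long the message lasts, where in the cell it goes and whether ribosomes read it. Splicing regulators bind short motifs near exons and shift the choice made by the spliceosome. The Sm ring is part of its snRNPs, and U2AF contacts the end of the intron. In the cytoplasm, proteins such as Pumilio, Musashi and FMRP repress bound messages, and Musashi proteins are known from stem and progenitor cells of the nervous system.

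Most of the 38 genes were abundant in neuroblasts. All 38 passed the filter on low counts, and their median level over the 24 libraries was 292 CPM (range 1.89 to 4745), against 10.9 CPM over all 10324 genes tested. On the deposited per-length scale of TPM (counts divided by gene length and scaled per library), averaged over the 8 groups, pAbp led with 2209 TPM. It encodes the poly(A)-binding protein, and its group means ran from 1771 to 2672 TPM. Next came Hrb27C at 1312 TPM and Hrb98DE at 1230 TPM, both hnRNP genes, rin at 861 TPM, the fly G3BP gene, and sqd at 789 TPM, an hnRNP gene known for localising mRNA in the oocyte. At the other end stood Rb97D (37.8 TPM), U2af38 (37.3 TPM), orb2 (3.99 TPM), Rbp6 (1.94 TPM) and aret (0.588 TPM). Hrb98DE exceeded its paralogue Hrb87F, which encodes a similar hnRNP of the A/B type, in all 8 groups, at 757 to 1763 TPM against 461 to 686 TPM. msi exceeded the related Rbp6 in all 8 groups as well, at 106 to 357 TPM against 0.433 to 5.4 TPM. The small U2AF subunit gene U2af38 was below the large subunit gene U2af50 in every group, at 24.5 to 59.0 TPM against 98.3 to 155 TPM.

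**Figure D1:**
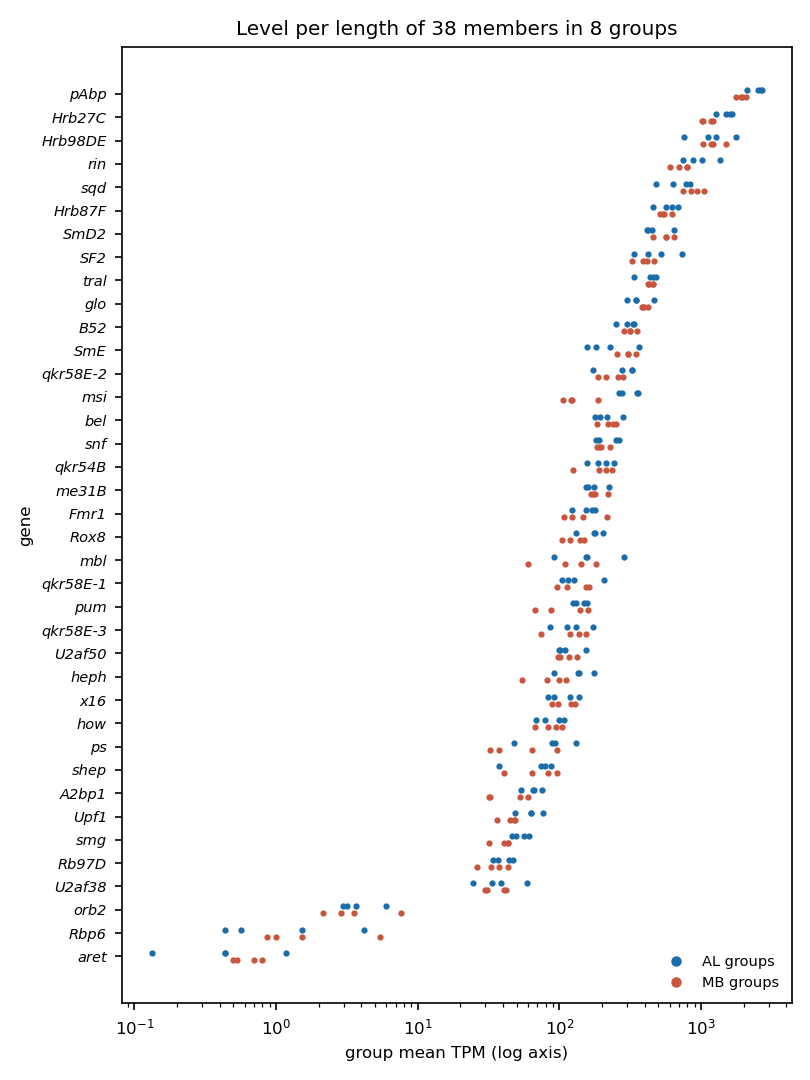
Group mean level per length of the 38 genes in TPM on a log axis, with 1 row per gene ordered by the mean over the 8 groups; blue points are the 4 AL groups and red points the 4 MB groups. pAbp leads at 2209 TPM, and orb2, Rbp6 and aret sit far below the rest, at 3.99 TPM or less.

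Some of the counts are less certain than others. The gene x16 overlaps nop5 on the same strand over 1991 bp in the deposited dm3 annotation, and nop5 had 275% of the counts of x16, so reads of the pair may be split wrongly. SmE lies within CG7102 over 494 bp on the same strand, and the whole 2395 bp of orb2 lie within CG43783, which had 0 counts. Several of the genes are neighbours. On chromosome 2R the 3 genes qkr58E-1, qkr58E-2 and qkr58E-3 lie within a few kilobases of each other, and on 3R sqd lies 2783 bp from rin. The members are therefore not all independent of each other in position or sequence.

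Age changed many of these genes in both lineages. In AL, 20 of the 38 differed among the 4 ages (52.6%), where 15.3% of all genes tested did. In MB, 17 of the 38 did (44.7%), against 17.7% of all genes. Among the 1453 genes with a mean of at least 100 CPM, 48.2% changed with age in AL and 53.8% in MB, and of the 27 members at that level 55.6% and 51.9% did. The test was the quasi-likelihood F test of edgeR, with p-values adjusted after Benjamini and Hochberg over all genes and a threshold of 0.05. The p-values measure only the spread between these libraries, since the labels do not say whether the libraries of a group came from separate animals or cultures. By class, 7 of 9 splicing regulators changed with age in each lineage. The core spliceosome had 3 of 5 in AL and 0 of 5 in MB, and the SR proteins 1 of 3 and 0 of 3. For those MB counts of 0 in edgeR, an unadjusted p under 0.05 was found for 0 core genes and 1 SR gene, DESeq2 called 0 and 1, and limma called 1 and 2. With spike-in RNA and recorded cell numbers in place of TMM scaling, 3 core and 2 SR genes were called in MB, and 32 of the 38 in all. The share of all genes called on that scale is not given here, so the 32 do not set the members apart from other genes. Spike-in RNA made up 0.315 to 0.353% of the spike-in and gene counts at MB 24 h and 0.718 to 0.945% at MB 50 h. The part of this in the 32 calls was not tested.

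**Figure D2:**
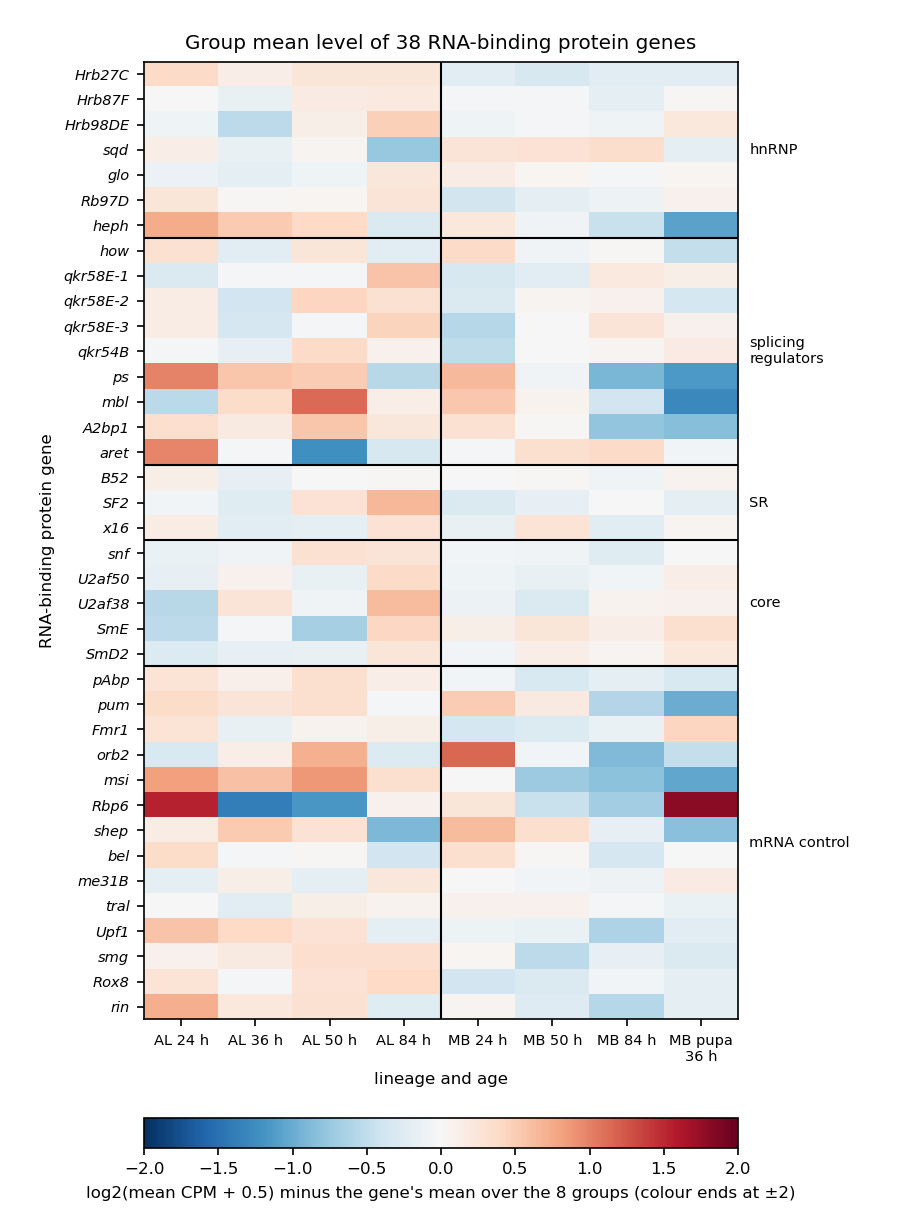
Group mean level of the 38 genes, in rows by class, in the 8 groups; colour gives log2(mean CPM + 0.5) minus the gene's own mean over the groups, red for above and blue for below. The splicing regulator ps and the mRNA regulator shep go from red to blue with age in both lineages, while qkr58E-1 is reddest at AL 84 h.

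Between 24 and 84 h in AL, 15 of the 38 genes changed (39.5%), where 12.4% of all genes did. Of these 6 rose and 9 fell, against 5.67% and 6.7% of all genes, and the median log2 change was 0.04 over the 38 and -0.02 over all genes. At 100 CPM and above, 36% of all genes and 44.4% of the 27 members changed. The risers came mostly from the splicing machinery and the fallers mostly from the regulators of mRNA and of splice choice. This split depends on scaling: with spike-in scaling the median of all genes moved from -0.02 to 0.59, and 13 members were called higher and 1 lower. In limma on log2(TPM + 1) the calls were 11 higher and 7 lower.

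The largest called fall in AL was that of ps (pasilla), the fly counterpart of the mammalian Nova splicing factors. Its level was 652, 856 and 755 CPM in the 3 libraries at 24 h and 261, 223 and 290 CPM at 84 h. All late libraries lay below all early ones, a 2.92-fold fall (log2 change -1.55 ± 0.14 SE, edgeR adjusted p = 2.6e-11), and with spike-in scaling the value was -0.95 and still called. Next was shep (alan shepard), which acts in neuronal remodelling, with 336, 373 and 350 CPM at 24 h and 171, 163 and 177 CPM at 84 h. No late library came near an early one (log2 change -1.05 ± 0.15 SE, edgeR adjusted p = 1.5e-06). heph, which encodes the polypyrimidine tract-binding protein, a splicing repressor, gave 628, 897 and 840 CPM early and 397, 370 and 391 CPM late. It fell 2.04-fold without overlap between the ages (log2 change -1.03 ± 0.12 SE, edgeR adjusted p = 3e-08). rin, whose protein joins stress granules, gave 1943, 2857 and 2741 CPM at 24 h and 1232, 1305 and 1314 CPM at 84 h. This was a 1.96-fold fall, again without overlap (log2 change -0.97 ± 0.12 SE, edgeR adjusted p = 5.7e-08).

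Smaller falls in AL were seen for sqd (log2 change -0.89 ± 0.11 SE), for the DEAD-box helicase gene bel (-0.76 ± 0.13) and for Upf1, the helicase of nonsense-mediated decay (-0.76 ± 0.21). The Musashi gene msi (-0.51 ± 0.14) and the KH-domain gene how (-0.53 ± 0.16), known for tendon cell differentiation, fell as well. Early and late libraries overlapped for Upf1 and how. The call of how was lost without any 1 of 4 libraries (-0.48 without AL 24 h replicate 2, -0.43 without replicate 3, -0.46 without AL 84 h replicate 1 and -0.47 without replicate 2). It was also lost in limma on log2(TPM + 1) and in the fit of the compared groups alone. The call of msi was lost when AL 24 h replicate 3 (-0.42) was left out, or replicate 1 of 84 h (-0.39), and in limma. That of Upf1 was lost without AL 24 h replicate 2 (-0.67), AL 84 h replicate 1 (-0.70) or replicate 3 (-0.55). Of the 9 fallers only ps kept its call under spike-in scaling. The others ranged from -0.44 for shep to 0.06 for msi.

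Among the AL risers, 3 of the 5 core spliceosome genes stood out, and the class had a median log2 change of 0.56. U2af38, the subunit of U2AF that contacts the AG at the intron's end, gave 18.0, 15.2 and 17.3 CPM at 24 h and 35.8, 29.6 and 50.0 CPM at 84 h. The lowest late library was above the highest early one (2.28-fold, log2 change 1.19 ± 0.32 SE, edgeR adjusted p = 0.0092), but the call was lost without AL 84 h replicate 3 (0.96). SmE, part of the Sm ring of the snRNPs, gave 46.4, 30.9 and 32.8 CPM early and 78.5, 57.6 and 74.8 CPM late, with no overlap (log2 change 0.94 ± 0.24 SE, edgeR adjusted p = 0.0064). SmD2, of the same ring, rose by 0.52 ± 0.14 on the log2 scale, a call lost without AL 84 h replicate 1 (0.47). U2af50 and snf, the U1 and U2 snRNP protein gene, were not called, at values of 0.39 to 0.56 on the log2 scale. With spike-in scaling all 5 core genes were called higher in AL.

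The other AL risers came from 3 classes. The SR protein gene SF2 gave 493, 410 and 441 CPM at 24 h and 655, 725 and 838 CPM at 84 h, without overlap (log2 change 0.72 ± 0.12 SE, edgeR adjusted p = 1.3e-05). Its relatives B52 and x16 were not called, at -0.10 and 0.14. qkr58E-1, one of 4 quaking-related KH-domain genes in the set, gave 56.5, 77.9 and 79.6 CPM early and 141, 139 and 114 CPM late, again apart (log2 change 0.88 ± 0.21 SE, edgeR adjusted p = 0.0025). The hnRNP gene Hrb98DE rose by 0.56 ± 0.10, while its paralogue Hrb87F was not called (0.20, 95% interval -0.03 to 0.43). All 3 of SF2, qkr58E-1 and Hrb98DE kept their calls when any 1 library was left out and under spike-in scaling.

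The course between those ages was not always even. mbl (muscleblind), a regulator of alternative exons, had mean levels of 712, 1329, 2258 and 1130 CPM at AL 24, 36, 50 and 84 h. All 3 libraries at 50 h (2363, 2118 and 2294 CPM) exceeded every other AL library, and the gene differed among the 4 AL ages (edgeR adjusted p = 0.00011), while 84 h against 24 h just missed the threshold (log2 change 0.67 ± 0.22 SE, edgeR adjusted p = 0.05). That last comparison was called when AL 24 h replicate 2 (0.98) was left out, or replicate 1 of 84 h (0.79), in DESeq2 (0.65), in limma (0.79), without the filter on low counts (0.69) and with spike-in scaling (1.23). Within AL, 17 of the 38 genes had their lowest mean at 36 h (44.7%), against 23.5% of all genes tested and 32.4% of those at 100 CPM and above, a description without a test. Hrb98DE was among them, with 953, 1032 and 879 CPM at 36 h and no other AL library under 1224 CPM.

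Between 24 and 84 h in MB, 13 of the 38 genes changed (34.2%), where 14.4% of all genes did. Only 3 rose and 10 fell, against 5.81% and 8.63% of all genes, and the median log2 change was -0.12 over the 38 and 0.05 over all genes. At 100 CPM and above, 43.5% of all genes and 40.7% of the members changed. The fallers were 6 of the 14 mRNA regulators, 3 splicing regulators and heph, and the risers were 3 of the 4 quaking-related genes. With spike-in scaling, under which the median of all genes was -0.18, all 10 fallers kept their calls and none of the risers did. In limma on log2(TPM + 1) the calls were 9 higher and 10 lower.

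orb2, the gene of a CPEB protein known for long-term memory, had the largest fall in MB. It was a low gene with 45.8, 48.8 and 40.6 CPM at 24 h and 8.62, 13.6 and 9.97 CPM at 84 h. The highest late library (13.6 CPM) was far below the lowest early one (40.6 CPM; 4.18-fold, log2 change -2.06 ± 0.36 SE, edgeR adjusted p = 3.6e-05). ps followed with 573, 613 and 593 CPM early and 219, 176 and 205 CPM late. Its 2.97-fold fall (log2 change -1.57 ± 0.14 SE, edgeR adjusted p = 2.7e-11) was beside that of -1.55 in AL, and the difference between the lineages was not called. pum (Pumilio), a translational repressor, gave 653, 899 and 1023 CPM at 24 h and 451, 312 and 433 CPM at 84 h, without overlap (log2 change -1.11 ± 0.18 SE, edgeR adjusted p = 3.5e-05). In AL it was not called (-0.41 ± 0.18, edgeR adjusted p = 0.14; called without AL 84 h replicate 3, -0.57), and the difference of -0.70 between the lineages was not called either (edgeR adjusted p = 0.11). A2bp1, the fly Rbfox gene, gave 206, 221 and 243 CPM early and 122, 72 and 118 CPM late, again apart (log2 change -1.10 ± 0.19 SE, edgeR adjusted p = 3.8e-05).

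The remaining MB fallers were mbl (-0.92), msi (-0.83), shep (-0.80), heph (-0.66), bel (-0.66) and rin (-0.62), each with early and late libraries apart. Their calls were kept whichever library was left out. ps, shep, heph, bel, rin and msi were thus called lower at 84 h in both lineages, with -0.51 to -1.55 in AL and -0.62 to -1.57 in MB. The comparisons use different libraries but share one estimate of the spread, and with spike-in scaling the AL calls other than ps were lost, as given above. The AL call of msi was lost in limma as well.

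The MB risers were quaking-related genes. qkr58E-3 gave 52.1, 43.2 and 68.9 CPM at 24 h and 111, 92.2 and 89.1 CPM at 84 h (log2 change 0.84 ± 0.20 SE, edgeR adjusted p = 0.0025). qkr54B gave 211, 267 and 269 CPM early and 396, 307 and 403 CPM late (log2 change 0.57 ± 0.14 SE, edgeR adjusted p = 0.0031). In both genes every late library was above every early one. qkr58E-2 rose by 0.37 ± 0.13, from 215, 199 and 262 to 287, 263 and 325 CPM, so that 262 against 263 CPM was all that kept the ages apart. Its call (edgeR adjusted p = 0.046) was lost without MB 24 h replicate 1 (0.34) or 2 (0.30), without MB 84 h replicate 1 (0.38) or 3 (0.31), in the fit of the compared groups alone (0.40) and without the filter on low counts (0.38). With the replicate number as a block it was lost too (0.37, edgeR adjusted p = 0.051).

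**Figure D3:**
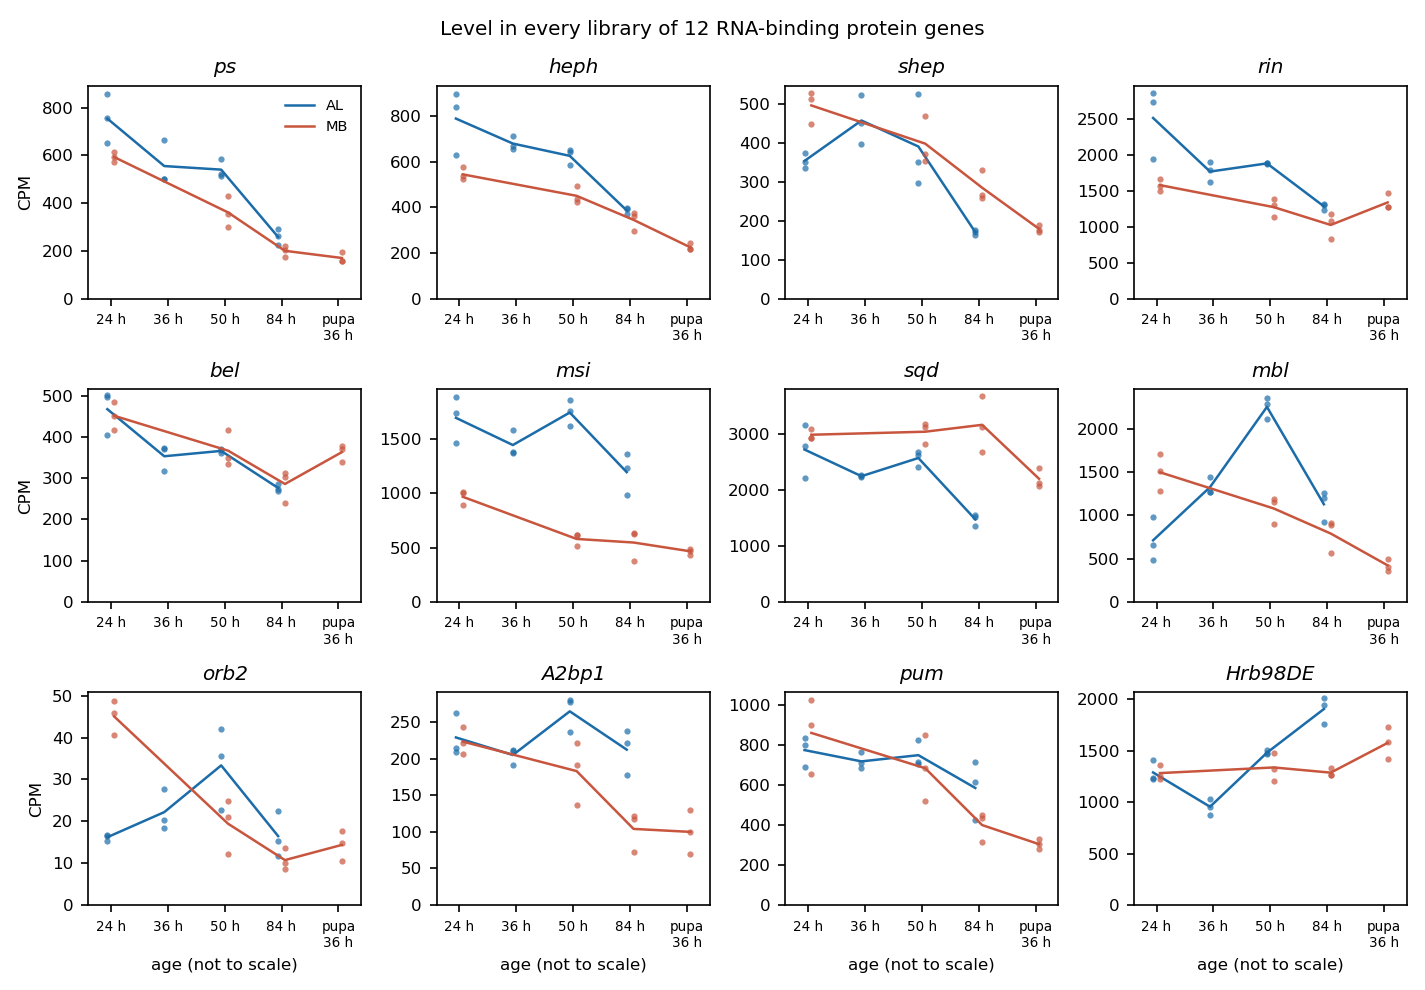
Level in CPM of 12 of the genes in every library (points) with group means joined by lines, for AL (blue) and MB (red) against age, ages not to scale. ps falls in both lineages, mbl peaks at AL 50 h (2118 to 2363 CPM) while it falls in MB, and orb2 starts at 40.6 to 48.8 CPM in MB at 24 h.

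The lineages differed in the change from 24 to 84 h for 5 of the 38 genes (13.2%), where 4.71% of all genes did, and at 100 CPM and above for 14.8% of the members against 15.3% of all. In 1 of the 5 the change in MB was the higher one (1.78% of all genes) and in 4 the lower (2.93%). The median difference was -0.09 over the 38 and 0.04 over all genes. With spike-in scaling, the median of all genes moved to -0.81 and 16 members were called, all lower in MB, and limma on log2(TPM + 1) called 2.

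Between 24 and 84 h mbl moved in opposite directions, though its rise in AL was not called in the main fit. It gave 489, 988 and 660 CPM at AL 24 h and 927, 1207 and 1256 CPM at 84 h, with 988 above 927. In MB it gave 1281, 1511 and 1710 CPM at 24 h and 894, 565 and 913 CPM at 84 h. From 50 to 84 h its mean fell in both lineages, from 2258 to 1130 CPM in AL and from 1081 to 791 CPM in MB. The 24 and 84 h groups overlapped in AL and were apart in MB. The change from 24 to 84 h in MB was lower by 1.59 ± 0.31 SE on the log2 scale (edgeR adjusted p = 0.0035). This call was kept without any 1 library (-1.90 to -1.38) and in the other fits. orb2 was similar at the ends of AL larval life, with 15.2, 16.8 and 16.6 CPM at 24 h and 11.6, 15.3 and 22.5 CPM at 84 h (log2 change 0.02), so that its fall of 2.06 in MB gave a difference of -2.08 ± 0.50 SE (edgeR adjusted p = 0.0074). In limma on log2(TPM + 1), a scale that compresses low genes, the difference was -1.52 and not called. A2bp1 had 209, 263 and 215 CPM at AL 24 h and 178, 221 and 238 CPM at 84 h, which overlap, and the difference was -0.99 ± 0.27 SE (edgeR adjusted p = 0.02). That call was lost without AL 24 h replicate 1 (-0.93), AL 84 h replicate 3 (-0.90), MB 24 h replicate 3 (-0.93) or MB 84 h replicate 2 (-0.80), and in limma (-0.87).

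The hnRNP genes sqd and Hrb98DE changed in AL and not in MB by the test, and for both the difference itself was called. sqd gave 2216, 3154 and 2782 CPM at AL 24 h and 1552, 1508 and 1354 CPM at 84 h, but 2927, 2932 and 3086 CPM at MB 24 h and 3678, 2680 and 3118 CPM at 84 h. Early and late libraries were apart in AL and overlapped in MB (0.08, 95% interval -0.13 to 0.30), and the difference was 0.97 ± 0.15 SE (edgeR adjusted p = 1.9e-05). Under spike-in scaling it was 0.10 and not called. Hrb98DE gave 1233, 1224 and 1406 CPM at AL 24 h and 2009, 1941 and 1763 CPM at 84 h, but 1362, 1229 and 1254 CPM at MB 24 h and 1263, 1329 and 1266 CPM at 84 h. The AL groups were apart and the MB groups overlapped (0.00, 95% interval -0.20 to 0.21), with a difference of -0.56 ± 0.14 SE (edgeR adjusted p = 0.014), which limma did not call (-0.43). The 3 core and SR genes with the largest AL rises showed no called difference: U2af38 -1 (edgeR adjusted p = 0.24), SmE -0.92 (0.12) and SF2 -0.45 (0.12). For the 5 core genes, 4 had an unadjusted p under 0.05 in edgeR, DESeq2 and limma called 0, and spike-in scaling called all 5.

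**Figure D4:**
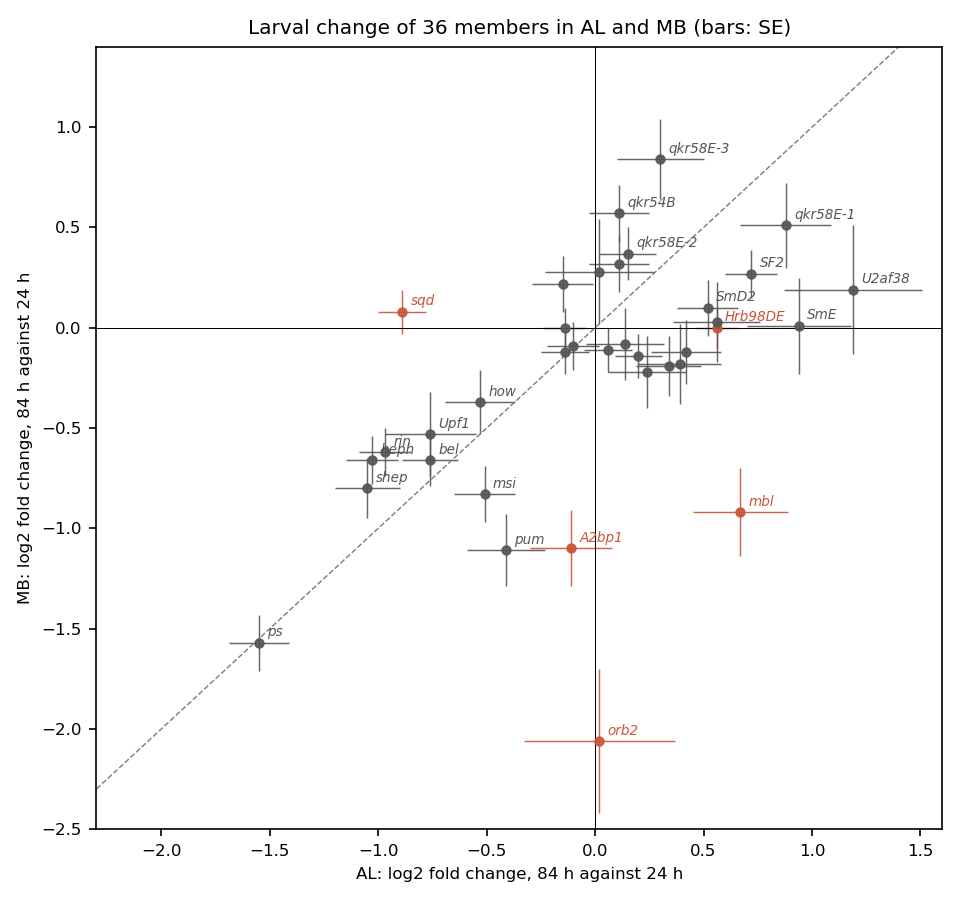
Log2 fold change from 24 to 84 h in AL (horizontal axis) against MB (vertical axis) for 36 of the genes, with standard errors; aret and Rbp6 are left out for their low counts, and red marks the 5 genes whose change differed between the lineages. ps lies near the dashed line of equal change at -1.55 and -1.57, while orb2, mbl, A2bp1 and Hrb98DE lie below it and sqd above.

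Cell type markers moved alongside some of these changes. Of all genes tested, 5.81% were called higher and 8.63% lower at 84 h in MB, and 5.67% and 6.7% in AL. The summed level of 9 neuroblast markers was 5054 to 5405 CPM at MB 24 h and 2952 to 4340 CPM at MB 84 h, with 1 marker called higher and 5 lower, and 5092 to 5449 and 4574 to 5800 CPM at the same ages in AL, with 1 higher and 2 lower. The 15 neuron markers summed to 964 to 1048 and 774 to 982 CPM in MB and to 832 to 938 and 870 to 922 CPM in AL, with 3 lower in MB and 4 lower in AL. The 9 glia markers summed to 576 to 632 CPM early and 360 to 436 CPM late in MB, and to 512 to 696 and 392 to 437 CPM in AL. Of 6 haemocyte markers tested, 2 fell in AL (Hml and Cg25C; median log2 change of the list -2.71) and 1 rose in MB. The 7 of that list summed to 45.2 to 118 and 58.5 to 76.5 CPM in AL, to 42.0 to 54.2 and 56.0 to 80.5 CPM in MB larvae, and to 101 to 147 CPM in the pupa. In such pools fewer cells of a type and less RNA per cell cannot be told apart, and the part of these markers in the results was not tested.

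From MB larvae at 84 h to MB pupae, 5 of the 38 genes changed (13.2%), where 2.61% of all genes did, and 18.5% of the members at 100 CPM and above against 10.4% of all such genes. Only Fmr1 rose (0.726% of all genes) and 4 genes fell (1.88%), with a median log2 change of 0.02 over the 38 and -0.02 over all genes. Fmr1, the gene of the fragile X protein FMRP, gave 294, 290 and 235 CPM at 84 h and 468, 359 and 376 CPM in the pupa, without overlap (log2 change 0.55 ± 0.14 SE, edgeR adjusted p = 0.017). mbl continued down, from 894, 565 and 913 CPM to 408, 359 and 498 CPM, again apart (-0.91 ± 0.22 SE, edgeR adjusted p = 0.027). heph went from 374, 298 and 362 CPM to 215, 242 and 215 CPM (-0.62 ± 0.12 SE, edgeR adjusted p = 0.0011), and shep from 266, 257 and 330 CPM to 171, 188 and 177 CPM (-0.67 ± 0.15 SE, edgeR adjusted p = 0.0052). sqd, not called between 24 and 84 h in MB, fell to 2389, 2073 and 2123 CPM in the pupa, below all 3 libraries at 84 h (-0.53 ± 0.11 SE, edgeR adjusted p = 0.0016).

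These pupal calls were the least steady. Without MB 84 h replicate 3 or pupal replicate 1 the count was 2, both lower. The call of shep was lost without either of these (-0.54 and -0.62) and that of Fmr1 as well (0.47 and 0.45). mbl was lost without MB 84 h replicate 1 (-0.81) or 3 (-0.78) or pupal replicate 1 (-0.86) or 2 (-0.79), and sqd without MB 84 h replicate 1 (-0.40). With spike-in scaling edgeR called 0 of the 38, with 4 at an unadjusted p under 0.05. The spike-in share of the counts was 0.316, 0.785 and 0.544% in pupal replicates 1, 2 and 3. The part of this spread in the loss of calls was not tested. Without spike-in scaling DESeq2 called 7 and limma 5, and shep was not among the 5 of limma. The Musashi relative Rbp6 had 4.52, 4.67 and 6.58 CPM at MB 84 h and 34.1, 37.0 and 25.3 CPM in the pupa. All 3 pupal libraries were above all 3 larval ones, but the difference was not called (2.61 ± 0.79 SE, edgeR adjusted p = 0.085), while DESeq2 (2.61), the fit without a filter (2.62) and the fit of the 2 groups alone (2.62) called it. In AL at 24 h the same gene had 40.3, 37.0 and 2.4 CPM in the 3 libraries, so that 1 library stood far below the other two.

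MB and AL neuroblasts of the same larval ages differed in 20 of the 38 genes (52.6%), where 21.9% of all genes did, and in 66.7% of the members at 100 CPM and above against 54.2% of all such genes. Only 3 were higher in MB (10.7% of all genes) and 17 lower (11.2%), and the median log2 difference was -0.22 over the 38 and 0.02 over all genes. The lower genes included 5 of the 7 hnRNP genes and 7 of the 14 mRNA regulators. This balance rests on the scaling: with spike-in RNA and cell numbers the median of all genes moved to 0.33, and 3 members were called higher and 1 lower. Of the 9 neuroblast markers 5 were lower in MB, among them ase (-0.91) and klu (-0.89), and 1 was higher (pnt, 1.69). They summed to 5092 to 5449 CPM in AL and 5054 to 5405 CPM in MB at 24 h, 5794 to 6713 and 3684 to 4689 CPM at 50 h, and 4574 to 5800 and 2952 to 4340 CPM at 84 h. Their part in the lineage difference was not tested.

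The 1 gene still called lower was msi (Musashi), a translational repressor, which also had the largest lineage difference. It gave 1466, 1740 and 1886 CPM in AL and 1010, 1002 and 894 CPM in MB at 24 h, 1863, 1756 and 1620 CPM against 613, 513 and 613 CPM at 50 h, and 986, 1238 and 1364 CPM against 637, 380 and 623 CPM at 84 h. At each age every AL library exceeded every MB library. Over the 3 ages msi was 2.26-fold lower in MB (log2 difference -1.18 ± 0.08 SE, edgeR adjusted p = 8.2e-15; -0.86 with spike-in scaling), and -1.22 to -1.13 when any 1 library was left out. The pupal MB libraries (434, 491 and 471 CPM) were lower than all but 1 of the larval MB ones.

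The lineages were also apart at each of the 3 ages for Rox8, the fly TIA-1 gene (-0.57 ± 0.08 SE), for Hrb27C (-0.55 ± 0.06), for rin (-0.52 ± 0.07), for SF2 (-0.45 ± 0.07) and for ps (-0.43 ± 0.08). Hrb27C, which acts with sqd in mRNA localisation, had 5234, 6293 and 6646 CPM at AL 24 h, 5958, 5045 and 5622 CPM at 50 h and 5608, 5387 and 5536 CPM at 84 h. In MB it had 4021, 3978 and 3963 CPM, then 4162, 3299 and 3796 CPM, and then 4423, 3686 and 3824 CPM. No MB library reached the lowest AL one. Rox8 had 259, 348 and 285 CPM at AL 24 h, 313, 310 and 278 CPM at 50 h and 396, 290 and 279 CPM at 84 h, against 183, 196 and 182 CPM, 207, 179 and 211 CPM and 269, 197 and 237 CPM in MB. A2bp1 was lower in MB over the 3 ages (-0.53 ± 0.11) but overlapped at 24 h, where the groups had 206 to 243 CPM in MB and 209 to 263 CPM in AL.

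The other genes lower in MB were Upf1 (-0.51), smg (-0.47), which recruits the deadenylation machinery in the embryo, pAbp (-0.42), Fmr1 (-0.40), Rb97D (-0.40), heph (-0.39), qkr58E-2 (-0.35), qkr54B (-0.30), Hrb98DE (-0.24) and Hrb87F (-0.21), with overlap at 1 or more ages. Rb97D kept its call in few fits. It was lost in 13 of the 18 fits that left out 1 library (-0.42 to -0.31 where lost), while Hrb87F was lost without AL 24 h replicate 3 (-0.17).

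Of the genes called higher in MB, sqd had the largest difference (log2 difference 0.49 ± 0.06 SE, edgeR adjusted p = 2.8e-08). Its libraries had 2216 to 3154 CPM in AL and 2927 to 3086 CPM in MB at 24 h, 2401 to 2681 and 2825 to 3169 CPM at 50 h, and 1354 to 1552 and 2680 to 3678 CPM at 84 h. The lineages thus overlapped at 24 h and were furthest apart at 84 h. shep was higher in MB by 0.42 ± 0.09, with 448 to 527 CPM against 336 to 373 CPM at 24 h, 352 to 468 against 296 to 524 CPM at 50 h and 257 to 330 against 163 to 177 CPM at 84 h. SmE was higher by 0.43 ± 0.14 (edgeR adjusted p = 0.024), with 46.5, 65.7 and 60.3 CPM in MB against 46.4, 30.9 and 32.8 CPM in AL at 24 h, 68.9, 63.5 and 54.6 against 27.8, 27.4 and 44.1 CPM at 50 h, and 42.1, 76.6 and 55.1 against 78.5, 57.6 and 74.8 CPM at 84 h. SmE was thus higher in MB at 24 h, where only 46.5 against 46.4 CPM kept the lineages apart, and at 50 h. At 84 h the lineages overlapped and the mean was lower in MB (57.9 against 70.3 CPM). The call was lost in 8 of the 18 fits that left out 1 library (0.32 to 0.41).

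**Figure D5:**
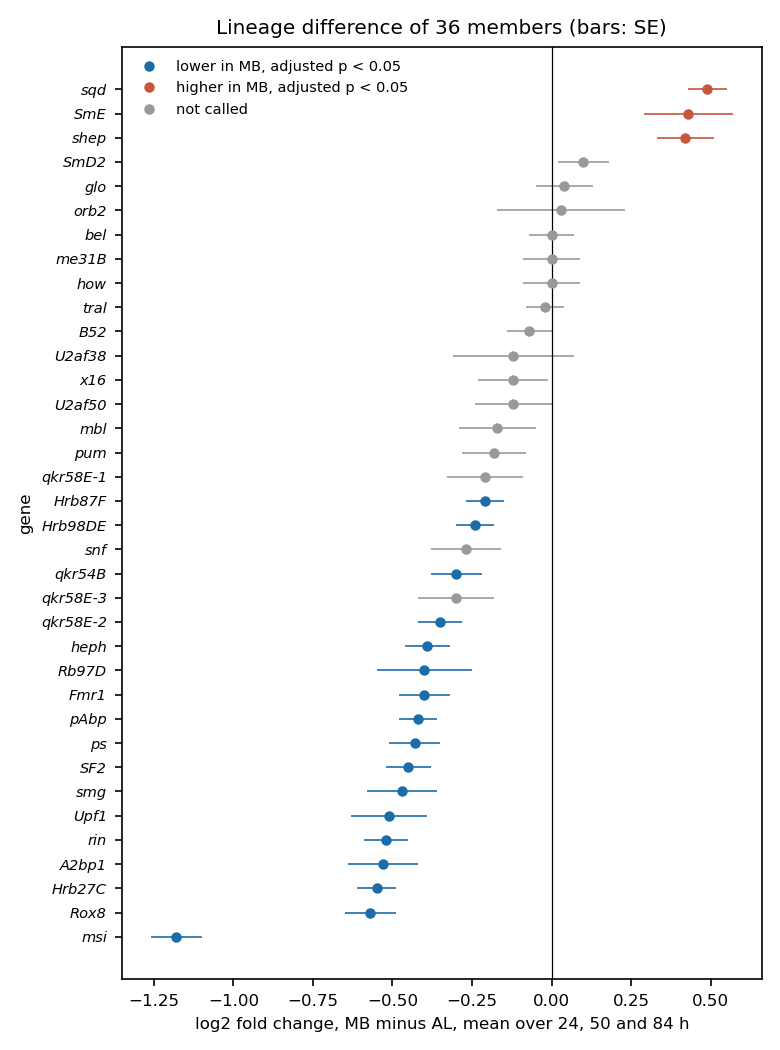
Log2 difference between MB and AL over 24, 50 and 84 h for 36 of the genes (points) with standard errors (bars); blue is called lower in MB, red higher and grey not called, all with TMM scaling. msi at -1.18 stands apart from the rest, and sqd, SmE and shep are the 3 genes called higher; with spike-in scaling only these 4 were called.

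Some genes varied little over the 8 groups. B52, an SR protein gene, had the smallest ratio of highest to lowest group mean, 1.21, with means from 498 ± 32.0 CPM at AL 36 h to 605 ± 40.8 CPM at AL 24 h. For tral (trailer hitch), which acts in mRNP granules with me31B, the ratio was 1.26 (643 ± 25.6 to 813 ± 62.2 CPM), and for Hrb87F 1.30 (575 ± 63.5 to 746 ± 14.6 CPM). For B52 the 84 h against 24 h log2 change had 95% intervals of -0.34 to 0.15 in AL and -0.34 to 0.16 in MB, and for tral of -0.16 to 0.28 and -0.33 to 0.11, so that changes within these bounds are not excluded. aret (Bruno), a repressor of oskar translation, was at 0 to 5.53 CPM over all libraries, near the limit set by depth, and no change of it was detectable.

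Genes of related pathways outside the 38 gave a mixed picture. Of all genes tested, 12.4% were called between 24 and 84 h in AL and 14.4% in MB. At 100 CPM and above these shares were 36% and 43.5%. Of 10 other SR and SR-like genes, 4 rose in AL from 24 to 84 h and 0 fell (median 0.55), among them Rsf1 (0.79 ± 0.17 SE) and tra2 (1.06 ± 0.33), a splicing factor of the sex determination pathway. In MB SRm160, a splicing coactivator gene, rose (0.64). With spike-in scaling 6 of the 10 were called in AL and 0 in MB, where 0 had an unadjusted p under 0.05. Of 12 other snRNP and splice site genes, Prp8, at the centre of the spliceosome, was the only one called in either lineage (0.59 in AL and 0.34 in MB). With spike-in scaling 4 of the 12 were called in AL, Prp8 among them (1.19), and 0 in MB, where Prp8 was at 0.10 and 1 gene had an unadjusted p under 0.05. DESeq2 called 2 in AL and 1 in MB, and limma 2 in each. For 5 other Sm core genes edgeR called 0 in both, with 3 in AL and 0 in MB at an unadjusted p under 0.05, DESeq2 called 0 and limma 2 and 0, and spike-in scaling called 3 in AL and 0 in MB. For 9 genes of the exon junction complex and nonsense-mediated decay edgeR also called 0 in both, with 3 and 2 at an unadjusted p under 0.05, DESeq2 called 0 and limma 1 and 0, and spike-in scaling called 2 in AL and 0 in MB. Of 9 deadenylation and decapping genes, Ge-1, a decapping scaffold, rose in both lineages (1.18 and 0.52), though its MB call was lost with spike-in scaling (0.29).

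Of 16 genes of translational control, stau (Staufen), which localises mRNA, rose in AL (1.27 ± 0.12 SE) and in MB (0.65 ± 0.12), and the difference between the changes was called (-0.62 ± 0.16 SE, edgeR adjusted p = 0.018). With spike-in scaling the MB rise of stau was not called (0.40), and in limma the difference was not (-0.50). Thor, the 4E-BP gene, fell in both (-1.17 and -2.39) and was higher in MB than in AL over the matched ages (2.61 ± 0.17). Atx2 fell in AL (-0.62). With spike-in scaling neither AL fall was called (Thor -0.53, Atx2 -0.01), while the MB fall of Thor (-2.64) and its lineage difference (2.92) were. Of 7 ELAV family and neuronal genes, 1 rose (mub, 0.40) and 1 fell (bru-2, -2.89) in AL, and 2 fell in MB (elav, -0.47, and fne, -1.35). bru-2 was a low gene, with 9.19 ± 4.55 CPM at AL 24 h and 1.21 ± 0.671 CPM at 84 h (SD, n = 3). With spike-in scaling bru-2 in AL (-2.20) and elav in MB (-0.72) were not called, and neither was called in limma (-1.58 and -0.28). In the MB pupa 4 of the 7 rose against 84 h (0.726% of all genes), elav (0.50), fne (0.82), Rbp9 (2.12) and bru-3 (3.22). bru-3 had 3.76 ± 2.87 CPM at MB 84 h and 35.2 ± 24.7 CPM in the pupa (SD, n = 3). The 15 neuron markers summed to 1011 to 1167 CPM in the pupa and 774 to 982 CPM at 84 h. This sum includes elav, at 434 ± 52.1 CPM in the pupa and 306 ± 71.7 CPM at 84 h. Of the 15 only elav was called, so the sum is not separate from its rise. With spike-in scaling, and in limma, only Rbp9 and bru-3 of the 7 were called. The part of neuronal RNA in these rises was not tested.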

How the data were processed

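RNA of sorted neuroblast pools was amplified with the NuGEN Ovation system, per the labels' protocols. The authors deposited raw counts per gene and a TPM table. The submitters' processing notes list HTSeq 0.6.1p1, STAR 2.4.0i, Bowtie2 2.1.0, cutadapt 1.7.1 and CASAVA, with dm3 and mm10 as builds. The step each served and the strand setting of the counting were not given in the sources used here. Positions are those of the deposited tables. Rows that name no gene (92 spike-in RNAs, 5 summary rows and 1 blank row with at most 0.000179% of reads) stayed out of the library sizes and tests.

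Groups were read from the lineage, stage, age and replicate in the sample titles. The counts of all 24 libraries were fitted with edgeR 4.0.16 in R 4.3.3 (TMM, filterByExpr by group, robust quasi-likelihood, 1 mean per group, 10324 genes, common biological coefficient of variation 0.471). The p-values were adjusted by Benjamini-Hochberg over all genes, with calls under 0.05. Standard errors are the size of the log2 change divided by the square root of F, and CPM are TMM-scaled. The procedure was tested on simulated data. No 2 libraries of a group agreed within sampling noise (chi-square per degree of freedom of at least 10.5).

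Alternatives were DESeq2 1.42.0 size factors in edgeR, spike-in and cell number scaling, no filter on low counts, DESeq2, limma 3.58.1 on log2(TPM + 1), a replicate block, the compared groups only, and each library left out. Counting among genes of at least 100 CPM was added after seeing the data.

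Every called member could be named. Values in each library are given for up to 4 risers and 4 fallers of at least 10 CPM with the largest changes, and the most and least abundant, the steadiest, and paralogues of named genes were added. Up to 3 called genes with the smallest adjusted p per comparison were named from each other list. The members and lists were chosen with earlier results of these data known.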

Additional observations from a re-analysis of the deposited data

Results flagged for a closer look

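For 5 of the 38 genes the change from 24 to 84 h differed between MB and AL in edgeR's quasi-likelihood test of the difference itself with Benjamini-Hochberg adjustment over all genes. On the log2 scale, MB minus AL, the differences were -2.08 for orb2 (adjusted p = 0.0074), -1.59 for mbl (0.0035), -0.99 for A2bp1 (0.02), -0.56 for Hrb98DE (0.014) and 0.97 for sqd (1.9e-05). In mbl and orb2 the MB value was the lower one in every fit, whereas sqd lost its call with spike-in scaling (0.10) and A2bp1 without any 1 of 4 libraries. In limma on log2(TPM + 1), orb2 (-1.52), A2bp1 (-0.87) and Hrb98DE (-0.43) were not called.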

How the results depend on the processing

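On the scale of spike-in RNA and recorded cell numbers, 32 members were called over the MB ages and 0 in the pupa against 84 h. Between lineages 4 were called, and 16 in the difference of changes. With TMM scaling these counts were 17, 5, 20 and 5. The shares of all genes called on the spike-in scale are not given here, so these counts do not set the members apart from other genes. AL at 24 h and AL at 84 h carry the same 3 recorded cell numbers (106, 108 and 101), and whether these are right was not tested. limma on log2(TPM + 1) called 2 in the difference of changes. Under spike-in scaling the sign turned for how (0.05), msi (0.06), A2bp1 (0.47) and pum (0.14) in AL, for sqd (-0.16), Hrb98DE (-0.22), U2af38 (-0.02), SmE (-0.21) and SmD2 (-0.12) in MB, and for Hrb87F (0.10), Hrb98DE (0.07) and qkr54B (0.02) between lineages. The cause was not tested. Of the values whose sign turned without 1 library, none was called in any fit concerned: A2bp1 in AL (0 without AL 24 h replicate 2 and without replicate 1 of 84 h, range -0.20 to 0), orb2 in AL (-0.03 without AL 24 h replicate 1, -0.27 without AL 84 h replicate 3, range to 0.22), sqd in MB (-0.04 without MB 84 h replicate 1, range to 0.19), Hrb98DE in MB (0, -0.01 and -0.02 without MB 24 h replicate 2, MB 24 h replicate 3 or MB 84 h replicate 2) and SmE in MB (-0.12 without MB 24 h replicate 1, -0.24 without MB 84 h replicate 2, range to 0.20).

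Leaving out each library in turn gave counts of 14 to 21 over the AL ages, 15 to 18 over the MB ages, 12 to 17 for AL 84 h against 24 h, 12 to 13 for MB, 2 to 5 for the pupa, 18 to 21 between lineages and 4 to 6 for the difference of changes. Of 69 changes of single genes, 68 kept their call and direction with DESeq2 size factors in edgeR, 66 without the filter on low counts, 65 in DESeq2, 58 in limma, 65 in the compared groups only and 28 with spike-in scaling. Deviations of same-numbered libraries correlated at -0.11 to 0.14 over 28 pairs of groups, and in 0 pairs were all 3 over 0.1. No strong effect shared by replicate number was thus seen. The sample titles do not say whether same-numbered libraries were handled together, and these correlations cannot exclude it. With the replicate block the counts were 20, 17, 15, 12, 5, 19 and 5, and 67 of the 69 kept their call; qkr58E-2 in MB (0.37) and Rb97D between lineages (-0.40) did not. Each group had 3 libraries, and a level under about 1 CPM could not be told from 0 in the shallowest.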
